A study of Homo sapiens with 18 samples.

Results

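The genes described here are a selection of integrins, focal adhesion proteins and actin regulators of invadopodia, read in MDA-MB-231 cells. They were chosen by name, as 45 genes: 8 integrin alpha chains, 5 integrin beta chains, 9 focal adhesion proteins, 7 invadopodium scaffolds and kinases, 12 actin regulators and 4 further genes, CDC42, RAC1, RHOA and RHOC. All 45 were found in the count table of 57820 identifiers. Of these, 44 passed the filter on low counts, as did 15307 genes in all, and ITGA11, a collagen-binding integrin alpha chain, did not, with 0 to 3 counts in each library.

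MDA-MB-231 is an established human breast cancer line of mesenchymal appearance that lacks hormone receptors and is widely used to study invasion. The cells, given as wild type in genotype, were transfected by lipofection for 72 h with a control siRNA (siCtrl) or with either of 2 siRNAs against RagC (siRagC1 and siRagC2), and each group had 6 libraries of total RNA. RagC, encoded by RRAGC, is a GTPase of the lysosomal Rag complex, which tethers the nutrient-sensing kinase complex mTORC1 to the lysosome, and the design asks which genes change when that tether is reduced. All 3 groups received siRNA, so the baseline is that of transfected cells, and all come from 1 cell line. The titles number the libraries as biological replicates. Whether each was its own culture is not said, and p-values measure only the scatter among these libraries, part of which may be technical. Library codes begin with D1103 for replicates 1 and 2 of every group and with D1221 for replicates 3 to 6, and what the codes mark is not stated.

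Integrins are heterodimers of an alpha and a beta chain that bind extracellular matrix outside the cell and, through talin and kindlin, couple it to actin inside. Clustered integrins recruit the kinases FAK and Src, and adaptors such as paxillin, to form focal adhesions. Invadopodia are actin-rich protrusions that degrade matrix: Src phosphorylates the scaffolds TKS5 and TKS4, which, with cortactin and N-WASP, bring in the Arp2/3 complex to nucleate branched actin.

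Library totals ran from 14.8 M to 71.6 M counts (M, 1000000), and their medians were 21.4 M with siCtrl, 36.1 M with siRagC1 and 24.6 M with siRagC2. RRAGC itself stood at 62.4 ± 2.75 CPM (counts per 1000000 counts, mean ± SD, n = 6) with siCtrl, 23.9 ± 7.58 with siRagC1 and 27.8 ± 8.30 with siRagC2, and every library labelled as silenced lay below every control. Its log2 fold change was -1.43 ± 0.17 (SE; edgeR adjusted p = 0.000373) with siRagC1 and -1.20 ± 0.17 (edgeR adjusted p = 0.00135) with siRagC2. Markers of the line were abundant in control cells, with VIM at a mean of 4335 CPM and CD44 at 926 CPM, while of the luminal and receptor genes ESR1 and PGR did not exceed 0.164 CPM in any library, CDH1 1.60 CPM and EPCAM 19.3 CPM. The 4 leukocyte markers together did not exceed 0.911 CPM. Of the endothelial markers, CDH5 did not exceed 0.0518 CPM and KDR ran from 4.05 to 7.31 CPM, with log2 fold changes of 0.22 and 0.32 short of the threshold (edgeR adjusted p = 0.257 and 0.0818). Of the fibroblast markers, PDGFRA did not exceed 0.0471 CPM, COL1A2 1.21 CPM and PDGFRB 8.79 CPM. The fibroblast list also held COL1A1, a collagen gene, which was higher with siRagC2 (51.6 ± 18.05 CPM against 30.2 ± 6.21, n = 6; edgeR adjusted p = 0.044). It was the 1 of 3 fibroblast markers tested that passed, and the summed CPM of that list ran from 27.8 to 47.2 with siCtrl and from 26.9 to 79.3 with siRagC2. The part of these markers in the results was not tested. Because these are bulk libraries, fewer cells of a type and less RNA per cell cannot be told apart.

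To place the genes on a common scale, control CPM was divided by the length of each gene's merged exons in kilobases. Merged exons pool all annotated transcripts of a gene, so this length can exceed that of the transcripts in these cells. The order of genes holds on this scale only, and other lengths were not tried. Highest on this scale were RHOA, whose product drives actomyosin contraction (245 ± 7.32 CPM per kb, SD, n = 6), and ITGB1 (241 ± 12.3 CPM per kb). ITGB1 is the beta chain shared by most collagen and fibronectin receptors, and its library range overlapped that of RHOA. Next came CFL1, the actin-severing protein cofilin, at 160 ± 11.4 CPM per kb and RAC1, the GTPase of lamellipodia, at 158 ± 6.27, again with overlapping ranges. Among the alpha chains the order was ITGA3 (128 ± 19.5), a laminin receptor chain, ITGA2 (102 ± 6.80), a collagen receptor chain, ITGA6 (92.5 ± 5.18), another laminin receptor chain, and ITGA5 (46.1 ± 5.75), which pairs with ITGB1 as the fibronectin receptor, all in CPM per kb. ITGA3, ITGA2 and ITGA6 overlapped in their library ranges, and ITGA5 lay below them without overlap. ITGAV, the alpha chain of RGD-binding integrins, stood at 20.5 ± 1.79 CPM per kb. Lowest on this scale among the genes tested were SH3PXD2B at 1.299 ± 0.18 CPM per kb, ITGB3 at 1.27 ± 0.22 and ITGB8 at 0.560 ± 0.076. ITGA10 stood at 3.04 ± 0.94. The beta chains thus differed by more than the spread between libraries: ITGB1, ITGB4 (67.0 ± 14.5 CPM per kb), ITGB5 (21.7 ± 1.96), ITGB3 and ITGB8 did not overlap in their ranges. ITGB3 shares 2266 of its 4394 exonic bases on the same strand with AC068234.1, which stood at 0 CPM in controls. How reads over shared bases were counted is not known here, so the level of ITGB3 may be understated.

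**Figure D1:**
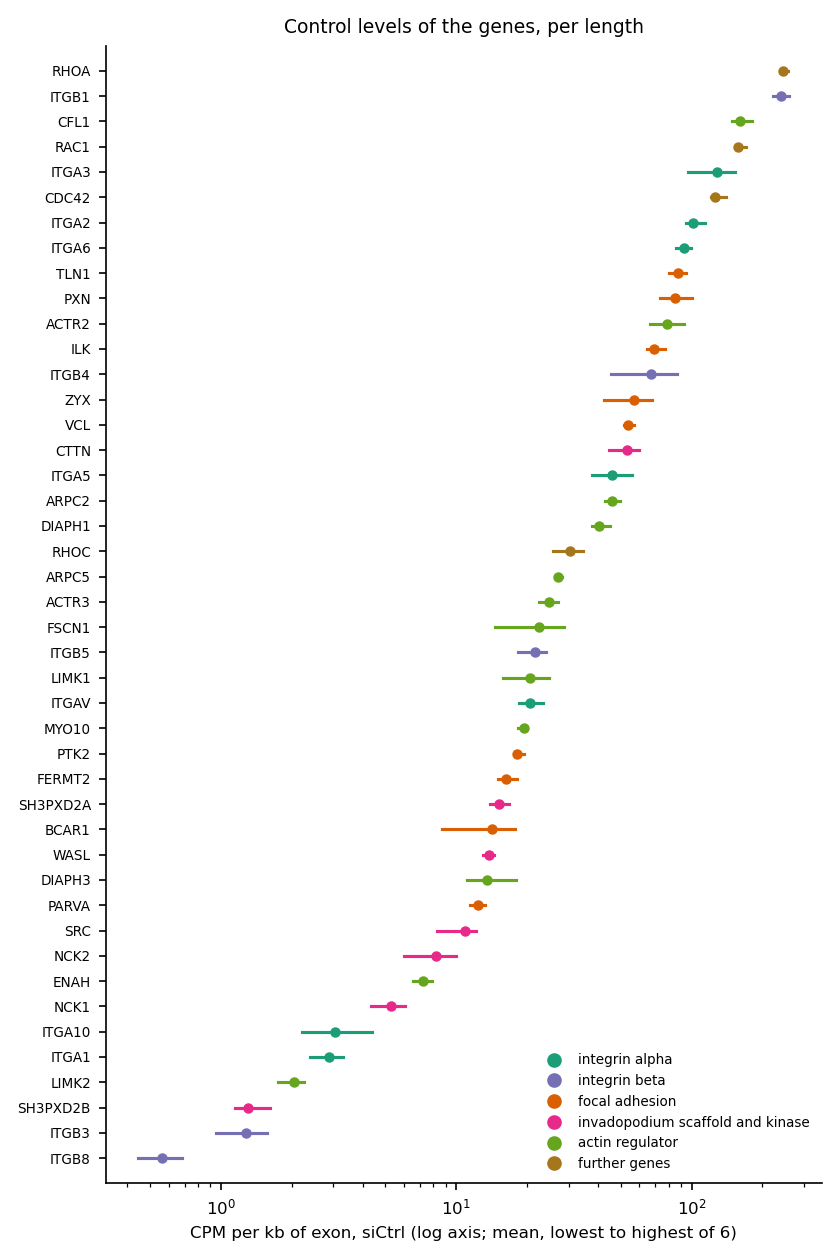
Level of each tested gene in the 6 siCtrl libraries, in CPM per kilobase of exon on a log axis, with points for the mean, bars from the lowest to the highest library and colours for the role. RHOA and ITGB1 lead at 245 and 241 CPM per kb, and ITGA10, ITGA1, LIMK2, SH3PXD2B, ITGB3 and ITGB8 make up the low end.

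When RagC was silenced, most adhesion and invadopodia genes had fold changes close to 0, and a single integrin chain passed the test. With siRagC1, ITGA10 fell and no member rose by edgeR's quasi-likelihood test at an adjusted p under 0.05. That was 1 of 44, beside 2.04% of all genes tested (1.41% higher and 0.627% lower), a share close to the background. With siRagC2, 0 of 44 passed, beside 3.23% of all genes tested (1.87% higher and 1.36% lower). At an unadjusted p under 0.05 the counts were 7 members with siRagC1 (5 higher and 2 lower) and 9 with siRagC2 (6 higher and 3 lower), beside 17.1% (9.26% higher and 7.81% lower) and 18.5% (9.93% higher and 8.58% lower) of all genes. By DESeq2 the count was 2 with siRagC1 and 3 with siRagC2, beside 5.04% and 6.53% of all genes, and by limma-voom it was 1 and 2, beside 3.18% and 4.84%. Same-numbered siRagC2 and siCtrl libraries deviated together, though these deviations still held any shift between the library codes, which such pairs share. In a fit blocked on the replicate number, the siRagC2 count was 4: ITGA10 was lower and ITGA5, ITGB3 and ITGB5 were higher. In that fit 6.44% of all genes passed.

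The size of the changes was small for most members. The median log2 fold change over the 44 genes was 0.018 with siRagC1 and 0.019 with siRagC2, beside 0.0051 and 0.0047 over all genes tested. The median absolute log2 fold change was 0.046 and 0.058, beside 0.079 and 0.081 over all genes. Fold changes were above 0 for 25 members with siRagC1 and 29 with siRagC2, beside 51.7% of all genes in each comparison. For 35 of 44 members with siRagC1 and 34 with siRagC2, the whole 95% interval lay within a 1.2-fold change either way, as it did for 54.8% and 53.5% of all genes, a bound that was chosen after the values were seen. All genes tested were not matched to the members in expression level, and the part of level in these contrasts was not tested. The interval reached past 1.5-fold for ITGA10 with either siRNA and for ITGB3 with siRagC2. No member had its 6 silenced libraries all above or all below the 6 controls, beside 0.516% of genes above and 0.314% below with siRagC1, and 0.601% and 0.542% with siRagC2. The comparisons share the 6 control libraries. In both of them 3 members were higher at an unadjusted p under 0.05 (ITGB3, ITGB5 and SH3PXD2B) and 1 was lower (ITGA10). The share of all genes at that unadjusted rule was not counted, so no excess is read from these members. No member passed the adjusted threshold in both, beside 0.771% of all genes higher and 0.314% lower in both.

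**Figure D2:**
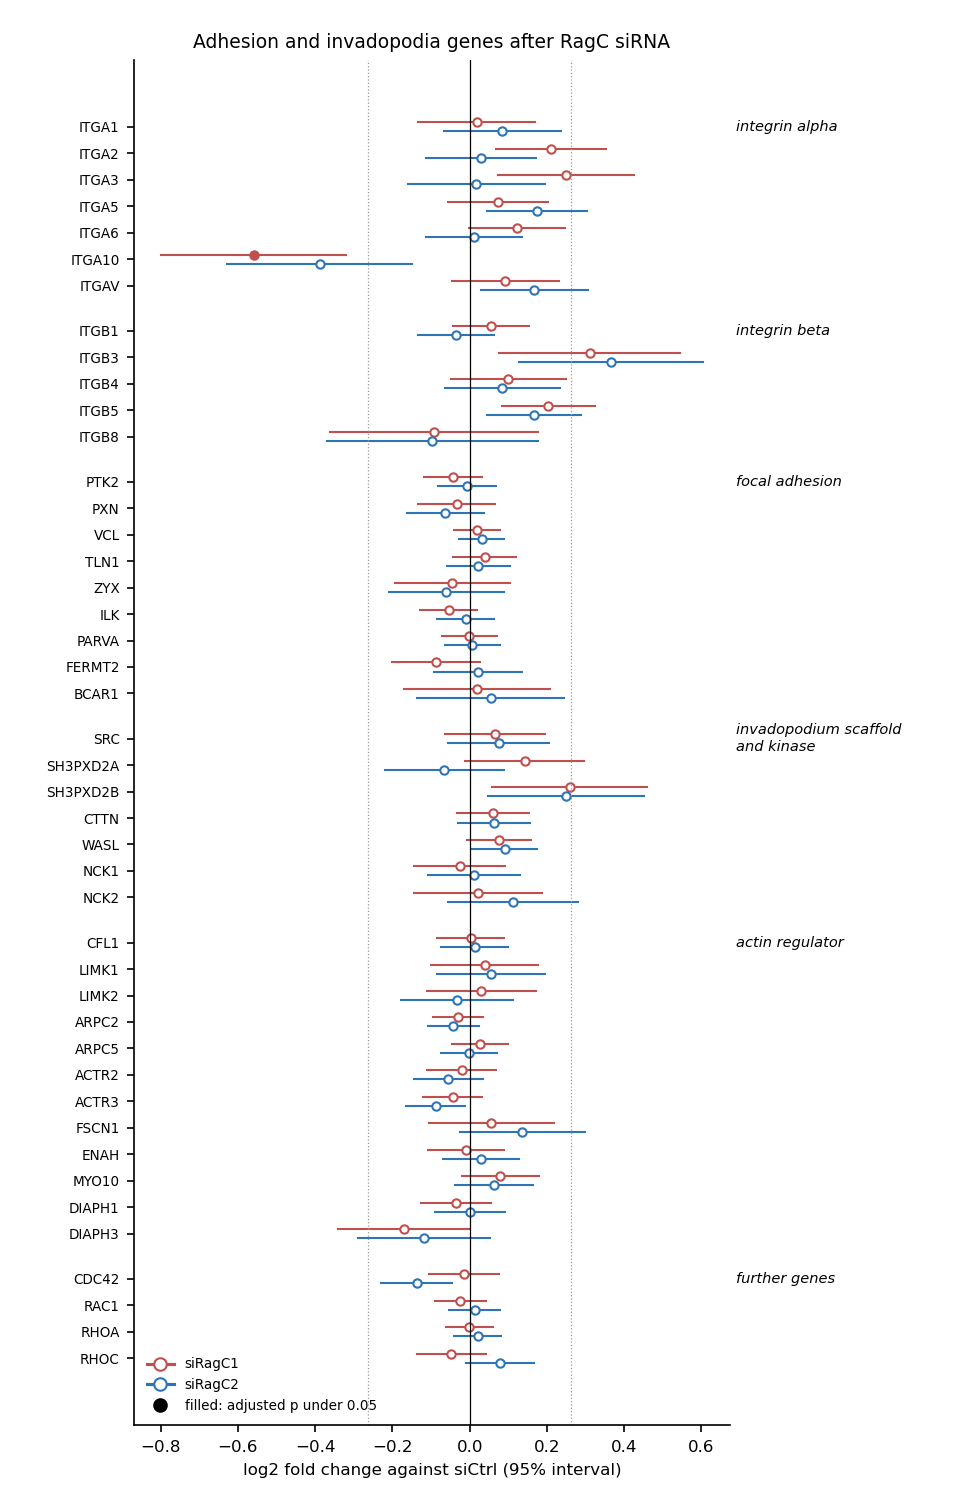
Log2 fold change of each tested gene against siCtrl with its 95% interval, siRagC1 in red and siRagC2 in blue, grouped by role, with dotted lines at a 1.2-fold change. ITGA10 with siRagC1 is the filled point, at -0.56, and most other intervals lie between the dotted lines.

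Promoters of 3 members are printed, ITGA10, SH3PXD2B and DIAPH3: among the members furthest from 0 in their role that RefSeq's table (GRCh38.p14) held, these had the largest absolute means of both fold changes. Those of ZYX and CDC42, nearer to 0, are not printed, a choice made after the values were seen. Each is the 250 bases before the start, on the gene's strand, and capitals mark matches on either strand to GGAATG, a core bound by TEAD factors, in ITGA10, and to the GC box GGGCGG, a site of the Sp family, in the other genes. They are ITGA10 at chr1:145910051-145910300, SH3PXD2B at chr5:172454526-172454775 and DIAPH3 at chr13:60163929-60164178, all on the minus strand.
ITGA10: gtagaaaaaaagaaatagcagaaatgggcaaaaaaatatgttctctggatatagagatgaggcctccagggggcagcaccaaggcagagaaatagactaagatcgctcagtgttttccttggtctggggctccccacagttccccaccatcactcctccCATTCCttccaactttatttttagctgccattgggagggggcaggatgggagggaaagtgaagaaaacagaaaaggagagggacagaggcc
SH3PXD2B: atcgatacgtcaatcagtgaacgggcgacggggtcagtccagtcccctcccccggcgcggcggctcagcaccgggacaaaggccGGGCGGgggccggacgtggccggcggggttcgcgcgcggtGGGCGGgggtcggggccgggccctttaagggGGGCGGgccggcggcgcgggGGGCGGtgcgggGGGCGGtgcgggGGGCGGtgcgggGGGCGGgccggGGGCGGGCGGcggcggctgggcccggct
DIAPH3: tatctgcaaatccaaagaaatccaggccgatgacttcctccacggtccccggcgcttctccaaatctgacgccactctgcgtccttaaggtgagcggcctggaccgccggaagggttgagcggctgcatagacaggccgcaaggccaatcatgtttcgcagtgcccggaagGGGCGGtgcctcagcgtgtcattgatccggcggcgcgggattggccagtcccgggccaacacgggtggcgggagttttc
The ITGA10 window is 48.4% G or C with 1 TEAD match and no GC box. The SH3PXD2B window is 82.8% G or C with 9 GC boxes, a pair of them overlapping, and that of DIAPH3 is 62.4% with 1. Of the 36 members with a promoter in the table, 27 held GGGCGG, beside 42.6% of 35116 promoters, and 4 held GGAATG (ITGA5, ITGA10, ITGB1 and VCL), beside 11.9%. The E-box CACGTG, bound by TFEB and related factors, was in 3 (ITGA6, ILK and DIAPH1), beside 6.34%, and the AP-1 motif TGANTCA was in 1 (BCAR1), beside 6.57%. The CArG box of SRF was in none of the 36, beside 1.16% of promoters. Matches are descriptions of these windows and were not tested for binding.

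Among the integrin alpha chains, ITGA10 (ENSG00000143127), a collagen-binding chain best known from cartilage, was lower in silenced cells. Its lowest, median and highest CPM were 14.03, 16.5 and 27.7 with siCtrl, 8.79, 12.8 and 17.4 with siRagC1, and 11.4, 13.5 and 21.2 with siRagC2. The groups overlapped, and the 2 control libraries of the D1103 codes, at 25.7 and 27.7 CPM, lay above all others. Every silenced library was below the control of the same number and code, in 6 of 6 comparisons with each siRNA. The log2 fold change was -0.56 ± 0.11 with siRagC1 (SE; 95% interval -0.80 to -0.32; edgeR adjusted p = 0.0155) and the level thus fell by 32.1%. With siRagC2 it was -0.39 ± 0.12 (interval -0.63 to -0.15; edgeR adjusted p = 0.0679), and -0.42 ± 0.080 with the replicate block (edgeR adjusted p = 0.00466). The siRagC2 value passed in 7 of 35 alternatives, among them DESeq2, limma-voom, no filter and the block. Within the code series the siRagC1 fold change was -0.75 ± 0.19 (D1103) and -0.44 ± 0.14 (D1221), and that of siRagC2 was -0.58 ± 0.19 and -0.27 ± 0.15. The siRagC1 call was lost without siCtrl replicate 2 (edgeR adjusted p = 0.0546), without siRagC1 replicate 1 (0.0526) or without all libraries of replicate 1 (0.0804), 2 (0.101) or 5 (0.0549). It was also lost with no term for the code series (0.283) and in fits to D1103 (0.0848) or D1221 (0.653) alone, and the fold change kept its sign in all 35 alternatives. An antisense gene, AC243547.1, shares 122 exonic bases with ITGA10 and stood at 0.062 CPM in controls, and it is not known here whether reads were counted by strand.

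The other alpha chains did not pass the test with either siRNA, and the values set beside them here come from the same fit. ITGA3 stood at 950, 1229 and 1496 CPM (lowest, median, highest) with siCtrl and at 1115, 1425 and 1816 with siRagC1, with a log2 fold change of 0.25 ± 0.084 (edgeR adjusted p = 0.12), and it was higher in 6 of 6 same-numbered libraries. With siRagC2 its fold change was 0.018 ± 0.084. ITGA2 showed a like order, at 0.21 ± 0.068 (edgeR adjusted p = 0.108) with siRagC1 and 0.029 ± 0.069 with siRagC2. For ITGA5 the larger value was that of siRagC2, at 0.17 ± 0.063 (edgeR adjusted p = 0.127) against 0.073 ± 0.063 with siRagC1, and with the replicate block the siRagC2 value passed (edgeR adjusted p = 0.0150). ITGAV was likewise at 0.17 ± 0.067 (edgeR adjusted p = 0.173) with siRagC2 and 0.092 ± 0.067 with siRagC1. ITGA6 was at 0.12 and 0.012 and ITGA1, a collagen-binding chain that shares 475 exonic bases on the same strand with PELO, at 0.018 and 0.085. Over the 7 alpha chains tested the median log2 fold change was 0.092 with siRagC1 and 0.029 with siRagC2.

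Among the beta chains, ITGB3 and ITGB5 had the largest positive fold changes, short of the threshold in the main edgeR fit. They are the partners of ITGAV in the vitronectin receptors. ITGB3 (ENSG00000259207) stood at 4.20, 5.64 and 6.88 CPM with siCtrl (lowest, median, highest), at 5.12, 7.55 and 8.32 with siRagC1 and at 5.72, 7.36 and 7.97 with siRagC2. Its silenced libraries overlapped the controls in level, and each exceeded the control of its own number. The log2 fold change was 0.31 ± 0.11 with siRagC1 (interval 0.075 to 0.55; edgeR adjusted p = 0.148) and 0.37 ± 0.11 with siRagC2 (0.13 to 0.60; edgeR adjusted p = 0.0818). ITGB5 (ENSG00000082781) stood at 118, 140 and 154 CPM with siCtrl, at 137, 166 and 171 with siRagC1 and at 146, 157 and 166 with siRagC2. It too was higher in 6 of 6 same-numbered libraries with each siRNA, by 0.20 ± 0.058 (edgeR adjusted p = 0.066) and 0.17 ± 0.058 (edgeR adjusted p = 0.114). With the replicate block both genes passed in the siRagC2 comparison (edgeR adjusted p = 0.0189 for ITGB3 and 0.0140 for ITGB5). Both also passed in the blocked siRagC1 comparison (edgeR adjusted p = 0.0359 and 0.00595), whose pairs missed the correlation bound given with the methods. ITGB3 with siRagC2 passed in 6 of 35 alternatives, among them DESeq2, limma-voom and no filter, and with siRagC1 in 3. ITGB1, the main partner of the alpha chains above, was at 0.055 ± 0.047 and -0.035 ± 0.047. ITGB4, the hemidesmosome chain that pairs with ITGA6, was at 0.10 and 0.085, and ITGB8 at -0.092 and -0.097.

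**Figure D3:**
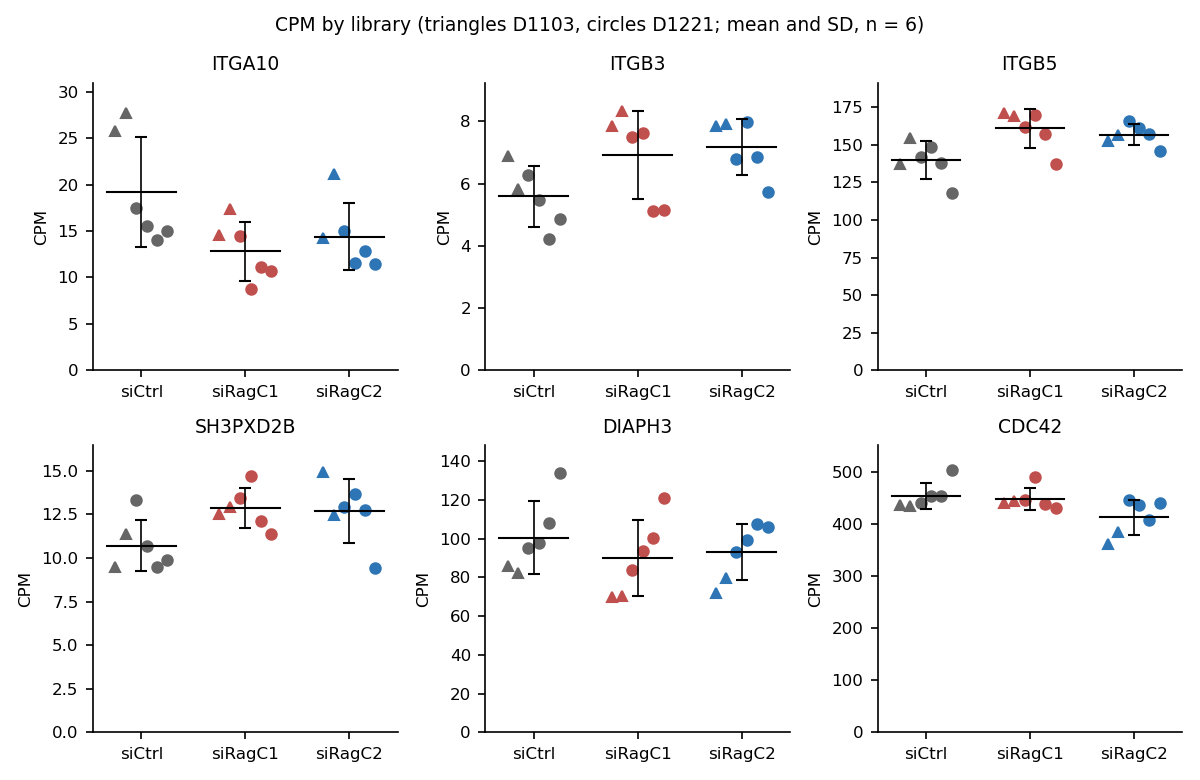
CPM in each library for 6 genes, with triangles for D1103 and circles for D1221 codes, and a line and bar for the mean and SD of 6 libraries. The ITGA10 controls of the D1103 codes stand at 25.7 and 27.7 CPM, and in every panel the silenced libraries overlap the controls.

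None of the 9 focal adhesion genes passed, and none reached an unadjusted p under 0.05 in either comparison. Their log2 fold changes ran from -0.087 to 0.039 with siRagC1 and from -0.063 to 0.054 with siRagC2. ZYX (ENSG00000159840), encoding zyxin, an adaptor of mature adhesions and stress fibres, was the furthest from 0 by the mean of both comparisons. It stood at 148, 202 and 236 CPM with siCtrl, 172, 196 and 208 with siRagC1 and 176, 189 and 209 with siRagC2, with fold changes of -0.045 ± 0.072 (edgeR adjusted p = 0.802) and -0.060 ± 0.072 (edgeR adjusted p = 0.731). PTK2, encoding FAK, was at -0.042 ± 0.036 and -0.0073 ± 0.036, and TLN1, encoding talin, at 0.039 ± 0.039 and 0.023 ± 0.039. VCL, encoding vinculin, had the narrowest interval of all members, from -0.041 to 0.078 with siRagC1 and from -0.029 to 0.090 with siRagC2. ILK, a pseudokinase that links integrin tails to actin through PARVA, was at -0.054 and -0.010, and PARVA at -0.0012 and 0.0067. PXN (paxillin) was at -0.034 and -0.063, BCAR1 (p130Cas) at 0.018 and 0.054, and FERMT2 (kindlin-2) at -0.087 and 0.021. VCL shares 1109 exonic bases with AP3M1 and ILK 2374 with TAF10 on the opposite strand, and these partners, at 94.6 and 74.9 CPM, passed the test with neither siRNA.

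Of the 7 invadopodium scaffolds and kinases none passed, and 6 of 7 had fold changes above 0 with each siRNA, beside the 51.7% given above. SH3PXD2B (ENSG00000174705), which encodes TKS4, stood at 9.48, 10.3 and 13.3 CPM with siCtrl, 11.4, 12.7 and 14.7 with siRagC1 and 9.42, 12.8 and 15.0 with siRagC2. It was higher than the same-numbered control in 6 of 6 libraries with siRagC1 and in 4 of 6 with siRagC2, and siRagC2 replicate 6, at 9.42 CPM, was the lowest of all 18. The log2 fold change was 0.26 ± 0.096 (edgeR adjusted p = 0.161) and 0.25 ± 0.098 (edgeR adjusted p = 0.163), and without siRagC2 replicate 6 the siRagC2 value was 0.31 (edgeR adjusted p = 0.0490). SH3PXD2A, which encodes TKS5, the scaffold most used to mark invadopodia, was at 0.14 ± 0.074 with siRagC1 and -0.065 ± 0.074 with siRagC2. CTTN (cortactin) was at 0.060 ± 0.045 and 0.064 ± 0.045 and SRC at 0.066 ± 0.063 and 0.076 ± 0.063. WASL, encoding N-WASP, was at 0.076 ± 0.040 and 0.091 ± 0.040 (edgeR adjusted p = 0.224 with siRagC2), and the adaptors NCK1 and NCK2, which join TKS proteins to N-WASP, at -0.026 and 0.012 and at 0.022 and 0.11.

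The 12 actin regulators had median log2 fold changes of -0.0034 with siRagC1 and -0.00011 with siRagC2, and none passed. DIAPH3 (ENSG00000139734), a formin that elongates unbranched filaments, was the furthest from 0 by the mean of both comparisons. It stood at 82.6, 96.4 and 134 CPM with siCtrl, 69.8, 88.7 and 121 with siRagC1 and 72.0, 96.3 and 107 with siRagC2. It was lower than the same-numbered control in 6 of 6 libraries with siRagC1 and in 5 of 6 with siRagC2, although the groups overlapped over most of their range. The fold change was -0.17 ± 0.082 (edgeR adjusted p = 0.292) and -0.12 ± 0.082 (edgeR adjusted p = 0.492). The siRagC1 value passed in 4 of 35 alternatives and that of siRagC2 in 0. The 4 were the replicate block (edgeR adjusted p = 0.0420), D1103 alone, and the fits without siRagC1 replicate 6 or all of replicate 6. DIAPH1, its relative, was at -0.035 and 0.00047. The Arp2/3 subunits were close to control: ARPC2 at -0.029 and -0.042, ARPC5 at 0.027 and -0.00073, ACTR2 at -0.020 and -0.055, and ACTR3 at -0.044 and -0.087 (edgeR adjusted p = 0.201 with siRagC2). CFL1 was at 0.0030 ± 0.041 and 0.013 ± 0.042, and LIMK1 and LIMK2, the kinases that inactivate cofilin, at 0.039 and 0.055 and at 0.030 and -0.033. FSCN1 (fascin), which bundles filaments in invadopodia and filopodia, was at 0.057 ± 0.077 and 0.14 ± 0.078, ENAH, an anti-capping protein, at -0.0097 and 0.029, and MYO10, the filopodial myosin, at 0.079 and 0.063.

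CDC42, RAC1, RHOA and RHOC did not pass edgeR's test with either siRNA, and all but RHOC were among the 6 most abundant members per length. CDC42 (ENSG00000070831), which activates N-WASP, stood at 434, 446 and 503 CPM with siCtrl, 431, 441 and 490 with siRagC1 and 362, 422 and 446 with siRagC2. Its log2 fold change was -0.016 ± 0.044 with siRagC1 and -0.14 ± 0.044 with siRagC2 (edgeR adjusted p = 0.898 and 0.0856), and the siRagC2 value was lower than control in 5 of 6 same-numbered libraries. The siRagC2 value passed by DESeq2 (adjusted p = 0.0371) and, at -0.22, in D1103 alone (edgeR adjusted p = 0.0296). RAC1 was at -0.024 ± 0.032 and 0.013 ± 0.032, RHOA at -0.00048 ± 0.030 and 0.021 ± 0.030, and RHOC, a GTPase tied to invasion, at -0.047 ± 0.043 and 0.078 ± 0.043. Annotated processed copies of CDC42 and RAC1 held at most 0.373% of the CPM of their gene.

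Set against each other, the siRNAs gave no member a difference past the threshold in the main edgeR fit, by DESeq2 or by limma-voom. In the main edgeR fit 0 of all 15307 genes passed. With no filter on counts, edgeR passed 3 members, all higher with siRagC1 (ITGA2, ITGA3 and SH3PXD2A), beside 0.704% of all genes. Counts in other settings are given further below. At an unadjusted p under 0.05 in the main edgeR fit there were 5 of 44, beside 7.75% of all genes. These were ITGA2 (log2 difference of siRagC1 minus siRagC2 0.18, interval 0.040 to 0.32), ITGA3 (0.23, 0.056 to 0.41), SH3PXD2A (0.21, 0.054 to 0.36), CDC42 (0.12, 0.031 to 0.21) and RHOC (-0.13, -0.21 to -0.037), with edgeR adjusted p-values from 0.445 to 0.514. The 95% interval lay within 1.2-fold for 38 of 44, beside 60.1% of all genes, again not matched in level, and within 1.5-fold for all 44.

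The library codes went with a larger shift than either siRNA. This comparison was added after the data were seen, and replicates and whatever the codes mark cannot be told apart. The code varies only between replicate numbers, and the fit took same-numbered libraries as independent. Its SEs and p-values for the codes may therefore be too small. Between D1221 and D1103, with the group in the model, 23 of 44 members passed (6 higher and 17 lower in D1221), beside 48.8% of all genes (23.8% higher and 25% lower). The log2 difference of D1221 minus D1103 was -0.58 ± 0.12 for ITGA10, -0.52 ± 0.074 for ITGB4, -0.45 ± 0.079 for FSCN1 and -0.39 ± 0.091 for BCAR1. It was 0.43 ± 0.087 for DIAPH3 and 0.27 ± 0.045 for ACTR2. For ITGA10 the shift between codes, at -0.58, stands beside -0.56 with siRagC1. Leaving out the replicate 2 libraries lowered the count to 13. By the interaction test, 0 members passed with either siRNA for a difference in effect between the codes, as for 0 of all genes. The fold change had the same sign in both code series for 34 of 44 members with siRagC1, beside 67.8% of all genes, and for 21 of 44 with siRagC2, beside 58.2%. In D1103 alone, ITGAV, MYO10 and CDC42 passed with siRagC2, beside 7.10% of all genes, and in D1221 alone no member did. By the interaction test at an unadjusted p under 0.05 there were 0 members with siRagC1, beside 2.03% of all genes, and 2 with siRagC2, beside 6.66%. Of these, MYO10 was at 0.25 ± 0.069 in D1103 and -0.033 ± 0.049 in D1221 (edgeR unadjusted p = 0.00341 and adjusted p = 0.735 for the difference) and FERMT2 was at 0.18 ± 0.087 and -0.060 ± 0.063.

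**Figure D4:**
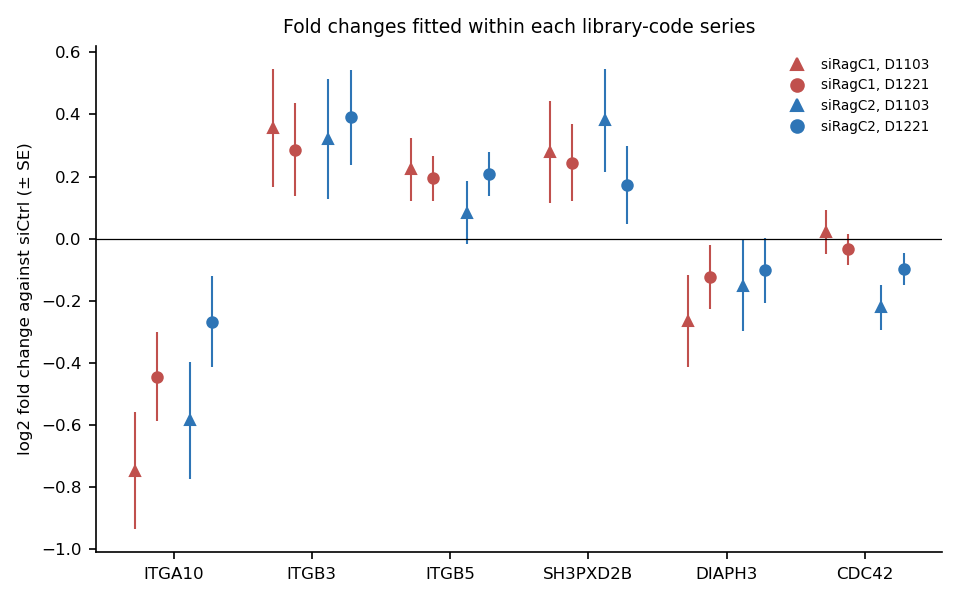
Log2 fold change against siCtrl with its SE, fitted within the D1103 libraries (triangles, 2 a group) and the D1221 libraries (circles, 4 a group) for 6 genes. ITGA10 lies below 0 in all 4 fits, and ITGB3, ITGB5 and SH3PXD2B lie above 0 in all 4.

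The wider adhesion and actin machinery was read from 145 further genes, of which 144 were in the table and 130 were tested. With siRagC1, 2 were higher and 4 lower, and with siRagC2, 5 were higher and 1 lower (8 higher and 4 lower with the replicate block), beside 2.04% and 3.23% of all genes (6.44% with the block). These counts rest on few libraries. The siRagC1 total of 6 was 0 without siCtrl replicate 2 or siRagC1 replicate 2, 1 to 3 without siCtrl replicate 1 or 5 or siRagC1 replicate 1, 3, 4 or 5, and 10 without siRagC1 replicate 6. That of siRagC2 was 1 to 3 without siCtrl replicate 1, 2 or 5 or any of siRagC2 replicates 1 to 5. Both totals were 0 with no code term, in D1221 alone, or without all libraries of replicate 1 or 2, and they were 1 and 3 in fits to the compared groups alone. No gene of the 6 other integrin chains or the 21 other WASP, WAVE and Arp2/3 genes passed in either comparison. The other focal adhesion genes (35 tested) gave 2 higher and 1 lower with siRagC1 and 1 and 1 with siRagC2. The 25 other cofilin, formin, fascin and myosin genes gave 3 higher with siRagC2. The 19 actin, SRF and YAP target genes gave 2 lower with siRagC1.

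CAV1, encoding caveolin-1, the coat protein of caveolae and a substrate of Src, was lower with both siRNAs, as were 0.314% of all genes. It stood at 432, 470 and 485 CPM with siCtrl (lowest, median, highest), at 399, 413 and 423 with siRagC1 and at 359, 414 and 423 with siRagC2. All 12 silenced libraries lay below all 6 controls. The log2 fold change was -0.17 ± 0.041 (edgeR adjusted p = 0.0312) and -0.19 ± 0.041 (edgeR adjusted p = 0.0131). It kept its sign in all 35 alternatives and passed in 19 of them with siRagC1 and 31 with siRagC2. With siRagC1 the call was lost without all libraries of any of replicates 1 to 5, without siCtrl replicate 1, 2 or 5 or without any of siRagC1 replicates 1 to 5, at edgeR adjusted p-values from 0.0585 to 0.147. With siRagC2 it was lost without all libraries of replicate 1 (edgeR adjusted p = 0.0801) or 2 (0.0519). Neither call was made with no term for the code series or in D1221 alone, and that of siRagC1 was not made in D1103 alone. Further genes that passed with 1 siRNA alone are named after their values were seen, and the difference between the siRNAs passed the test for none of them. With siRagC1, TLN2, a second talin, rose by a log2 fold change of 0.26 and ARHGEF6, an exchange factor for RAC1 and CDC42, by 0.46, while CCN1, a YAP target and integrin ligand, was at -0.38 and CRIM1 at -0.23. With siRagC2, TNS3, a tensin, rose by 0.17, SSH3 and TESK2, a phosphatase and a kinase of cofilin, by 0.28 and 0.31, and MYO1E, a class I myosin, by 0.20.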

How the data were processed

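RNA from 18 MDA-MB-231 libraries in 3 groups of 6 was sequenced from 500 ng of total RNA per sample, per the labels' protocols. The authors deposited 1 table of whole-number read counts per gene, not normalized; the submitters' processing notes name cutadapt 0.6.2, STAR 2.7.6a and GRCh37 (hg19). The sources used here do not give the counter, its annotation or its strand setting. Symbols were found for 51996 of 57820 identifiers. All 18 libraries entered 1 fit by edgeR 4.0.16 under R 4.3.3: its robust quasi-likelihood F test, with TMM scaling, the filterByExpr minimum by group and a term for the code series, with Benjamini-Hochberg adjustment over 15307 genes and a threshold of 0.05. CPM used TMM-scaled totals, SE is the absolute fold change over the root of F, and lengths per gene are merged GENCODE exons. No replicates agreed within sampling noise (chi-square per gene 2.88 to 81.6). Intervals cover the fitted spread only.

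Alternatives were RLE and upper-quartile factors, other filters, DESeq2 1.42.0, limma-voom (limma 3.58.1), a replicate block, no code term, fits to D1103, to D1221 or to the compared groups only, and leave-outs. Same-numbered libraries share a number and a code in the labels. Their deviations from the group means correlated at 0.116 to 0.492 for siRagC2 with siCtrl and at 0.221 to 0.582 for siRagC1 with siRagC2, over 0.1 in every pair, and at 0.0765 to 0.610 for siRagC1 with siCtrl, which misses that bound. These deviations still held the shift between the codes, which same-numbered libraries share, so they cannot show pairing beyond the code. For siRagC2 with siCtrl the correlations were 0.482 and 0.492 in the D1103 pairs and 0.116 to 0.262 in the D1221 pairs. The blocked value is given beside the siRagC2 results on the bound of 0.1 alone. For ITGB3, ITGB5 and DIAPH3 the blocked siRagC1 value is given too, although those pairs miss the bound.

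The genes and lists were chosen with earlier results of these data known. Named in full were members past the threshold and, in each role, the member with the largest absolute mean of both fold changes; further members are given by their fold changes, and ITGB5 was added after its values were seen. Promoters came from RefSeq's table for 36 of 45 members (14 with several rows, of which the first was used), and their windows were placed on GRCh38.p14, not on the authors' build. The fit was also run on simulated data, which held no shift between the codes and so did not test the code term. Results of 1 list of further genes are not reported here, though its genes are in the totals.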

Additional observations from a re-analysis of the deposited data

Results flagged for a closer look

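In 8 of 132 sets of 6 libraries (44 genes, 3 groups), the highest library stood apart from the other 5 by Dixon's gap test, which picks out about 5% of sets by chance. ITGA10 was at 21.2 CPM in siRagC2 replicate 2, beside 11.4 to 15.0 in the others, and SH3PXD2A at 205 CPM in the same library, beside 156 to 174. SRC was at 79.8 CPM in siRagC2 replicate 1, beside 72.1 to 74.6. In siCtrl replicate 6, PTK2 was at 266 CPM beside 244 to 250, CDC42 at 503 beside 434 to 453 and RAC1 at 529 beside 476 to 494. In siRagC1 replicate 4, ARPC5 was at 317 CPM beside 282 to 295 and CDC42 at 490 beside 431 to 446.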

How the results depend on the processing

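Counts of members called are given in the order siRagC1, siRagC2, siRagC1 against siRagC2 and both siRNAs, against 1, 0, 0 and 0 above. The share of all genes called in the first 3 comparisons follows in parentheses. They were 4, 4, 3 and 1 with no filter (2.57%, 2.71% and 0.704%). By DESeq2 they were 2, 3, 0 and 1 (5.04%, 6.53% and 0.163%), and by limma-voom 1, 2, 0 and 1 (3.18%, 4.84% and 0%). With the replicate block they were 4, 4, 0 and 3 (5.64%, 6.44% and 0%), the siRagC1 calls being ITGA10, ITGB3, ITGB5 and DIAPH3. In the D1103 libraries alone they were 3, 3, 2 and 0 (3.43%, 7.10% and 1.43%). The siRagC1 count was 0 with no code term (0.0457%) or in the D1221 libraries alone (0.00666%). Leaving out libraries gave 0 to 6 for siRagC1, 0 to 4 for siRagC2, 0 to 3 for siRagC1 against siRagC2, 0 to 2 for both and 13 to 26 for D1221 against D1103. The 6 came without siRagC1 replicate 6 or all of replicate 6 (ITGA2, ITGA3, ITGA10, ITGB3, ITGB5 and DIAPH3). With siRagC2, ITGA10 passed without replicate 3 of all groups, of siRagC1 or of siRagC2. ITGB3 passed without siCtrl replicate 3 or all of replicate 6. SH3PXD2B passed without siRagC2 replicate 6 or all of replicate 6, and ITGA5 without siRagC2 replicate 6. The causes were not tested. RLE and upper-quartile factors, a mean of at least 5 CPM and the compared groups alone kept the 4 counts.

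ITGA10 with siRagC1 ran from -0.75 to -0.45 over 35 alternatives and passed in 27, and with siRagC2 from -0.58 to -0.27, passing in 7. The sign turned for values near 0: CDC42 with siRagC1 was 0.022 in D1103 alone, 0.023 without replicate 6, 0.0083 without siCtrl replicate 6 and 0.0031 without siRagC1 replicate 6, and ZYX with siRagC2 was 0.025 in D1221 alone and 0.0059 without replicate 2. Over the leave-outs they ran from -0.042 to 0.023 and from -0.13 to 0.0059. The 95% interval with siRagC1 spanned from 0.059 on the log2 scale to each side (VCL) to 0.27 (ITGB8), and how far depth sets this was not tested.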
